A study of Mus musculus with 22 samples.

Results

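Liver metastases and normal islets are the 2 ends of tumour progression in the RIP1-Tag2 (RT2) mouse, and the comparison asks how much of the islet program is still read in tumour that has reached the liver. The 3 samples labelled as liver metastases (I-9820-Met, I-9821-Met and I-9822-Met) were set against the 3 labelled as normal islets (NormalI-93, Normal2006 and Normal2007), out of 22 samples in 6 groups, chosen by the tissue label alone. All 6 samples carry the RIP1-TAG2 genotype label, the normal islets included. In this strain the rat insulin promoter drives the SV40 T antigen in beta cells, so beta cells of both groups would carry the oncogene if the label holds for the normal islets, which was not tested. With age, sex, strain background, pooling and number of animals not given in the sources used here, p-values measure the spread between samples, which may be technical. RNA of each sample was hybridised to 1 Affymetrix Mouse Gene ST array, and 19938 genes could be named by a single symbol and compared. Values are the deposited log2 intensities, on which a difference of 1 is a doubling of signal. The 6 array medians lay between 7.08 and 7.20. No detection calls were used, so a level below these medians may be close to background, and a fold change that ends there understates a loss.

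An islet is a small organ of beta cells, which release insulin, together with alpha, delta and PP cells, which release glucagon, somatostatin and pancreatic polypeptide. A beta cell is set up by transcription factors such as Pdx1, Nkx2-2 and Neurod1, and it becomes glucose-responsive late, when Mafa and Ucn3 appear and the low-affinity transporter Slc2a2 feeds glycolysis to the mitochondria. Neuroendocrine tumours of the pancreas are recognised by the granule machinery they share with islets, which includes chromogranins, synaptophysin and the prohormone convertases.

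The promoters of 3 genes that the comparison turns on are printed here: Sst, the hormone gene of delta cells with the lowest difference, Iapp, the beta-cell hormone gene that kept a high level, and Alb, the albumin gene of hepatocytes. Each sequence holds the 250 bases before the transcription start from RefSeq (GRCm38.p6), 5′ to 3′ on the gene's strand, with 3 motifs in capitals where a search of both strands found them. These were the E-box CATCTG, of the kind that Neurod1 binds in insulin promoters, the cAMP response element TGACGTCA, and GTTAAT, an arm of the palindrome that HNF1 factors bind in liver genes. They occur in 14.4%, 1.55% and 6.43% of the 32851 promoters of this length, and no 2 matches overlap. The Sst promoter (chr16:23890845-23891094, minus strand) has the cAMP response element from base 48 before the start, the Iapp promoter (chr6:142298175-142298424, plus strand) has the E-box from base 111 and GTTAAT from base 138, and the Alb promoter (chr5:90460620-90460869, plus strand) has GTTAAT from base 32 and an E-box from base 134. A match describes the letters only.
Sst: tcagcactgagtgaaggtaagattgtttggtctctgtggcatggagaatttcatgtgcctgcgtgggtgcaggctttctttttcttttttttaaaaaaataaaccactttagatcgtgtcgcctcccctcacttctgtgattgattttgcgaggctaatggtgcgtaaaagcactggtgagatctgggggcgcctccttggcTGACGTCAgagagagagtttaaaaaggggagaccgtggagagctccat
Iapp: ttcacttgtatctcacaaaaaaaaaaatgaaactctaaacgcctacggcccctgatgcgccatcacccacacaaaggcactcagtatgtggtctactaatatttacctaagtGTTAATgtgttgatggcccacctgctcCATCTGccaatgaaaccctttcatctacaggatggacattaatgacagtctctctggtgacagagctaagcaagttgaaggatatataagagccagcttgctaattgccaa
Alb: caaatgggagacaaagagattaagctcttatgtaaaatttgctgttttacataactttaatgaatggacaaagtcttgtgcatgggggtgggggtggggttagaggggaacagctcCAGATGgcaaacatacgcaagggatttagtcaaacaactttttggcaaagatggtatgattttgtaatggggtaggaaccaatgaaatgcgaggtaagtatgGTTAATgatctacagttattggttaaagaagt

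Over all genes, 9139 of 19938 were called between liver metastases and normal islets at an adjusted p below 0.05, which is 45.8% of those tested. Of these, 4140 (20.8% of all) were higher in the metastases and 4999 (25.1%) were lower. The median difference over all genes was -0.04 log2. Because so many genes were called, member counts below are read against these shares. A second description was used for genes that were kept: the 95% interval of the difference lay within 1 log2 of 0 for 15939 genes (79.9%), 5397 of which were also called, so that a small difference and a call do not exclude each other. Groups did not overlap for 56.4% of genes, with all metastases above all normal islets in 25.4% and below in 30.9%.

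All 7 measured islet hormone genes were lower in the metastases, against 25.1% of all genes. The list median was -4.75 log2, and the hormones of the non-beta cells fell most. Somatostatin (Sst) was at 6.79, 6.76 and 6.72 in liver metastases, against 12.88, 13.16 and 13.17 in normal islets. The difference was -6.31 ± 0.24 log2 (SE, adjusted p = 2.74e-13), a signal 79.4-fold lower, and its 3 metastasis values lay below the array medians. Peptide YY (Pyy) was at 6.99 to 7.21 in metastases and 13.15 to 13.39 in normal islets (-6.17 ± 0.27), pancreatic polypeptide (Ppy) at 8.0 to 8.03 and 13.17 to 13.35 (-5.26 ± 0.57). Glucagon (Gcg) was at 8.44, 8.33 and 8.90 in metastases, against 13.24, 13.34 and 13.34 in normal islets (-4.75 ± 0.50, adjusted p = 9.98e-08). In whole tissue, fewer cells of a type and less RNA per cell cannot be told apart. Ghrelin (Ghrl), low in both groups, differed by -0.55 ± 0.11.

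The beta-cell hormone genes had smaller differences in signal. Islet amyloid polypeptide (Iapp), co-secreted with insulin, was at 12.35, 12.25 and 12.86 in liver metastases, against 13.57, 13.62 and 13.60 in normal islets, a difference of -1.11 ± 0.17 log2 (2.16-fold lower, adjusted p = 9.27e-06). The insulin gene Ins2 was at 10.26, 10.22 and 10.53 in metastases, against 11.02, 11.04 and 10.91 in normal islets (-0.65 ± 0.11, adjusted p = 4.16e-05). Iapp was the highest of all genes on each normal islet array, so its signal may be close to the top of the scale there and its fall may be an underestimate. The groups did not overlap for either gene, and for Ins2 the interval of -0.88 to -0.42 stayed within 1 log2. Ins2 shares much of its sequence with Ins1, which was not analysed here, so cross-hybridisation makes its level uncertain. In normal islets Ins2 also read below Gcg (13.24 to 13.34), and whether its probe set understates differences was not tested. The sizes of the falls may therefore not compare between the hormone genes.

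**Figure D1:**
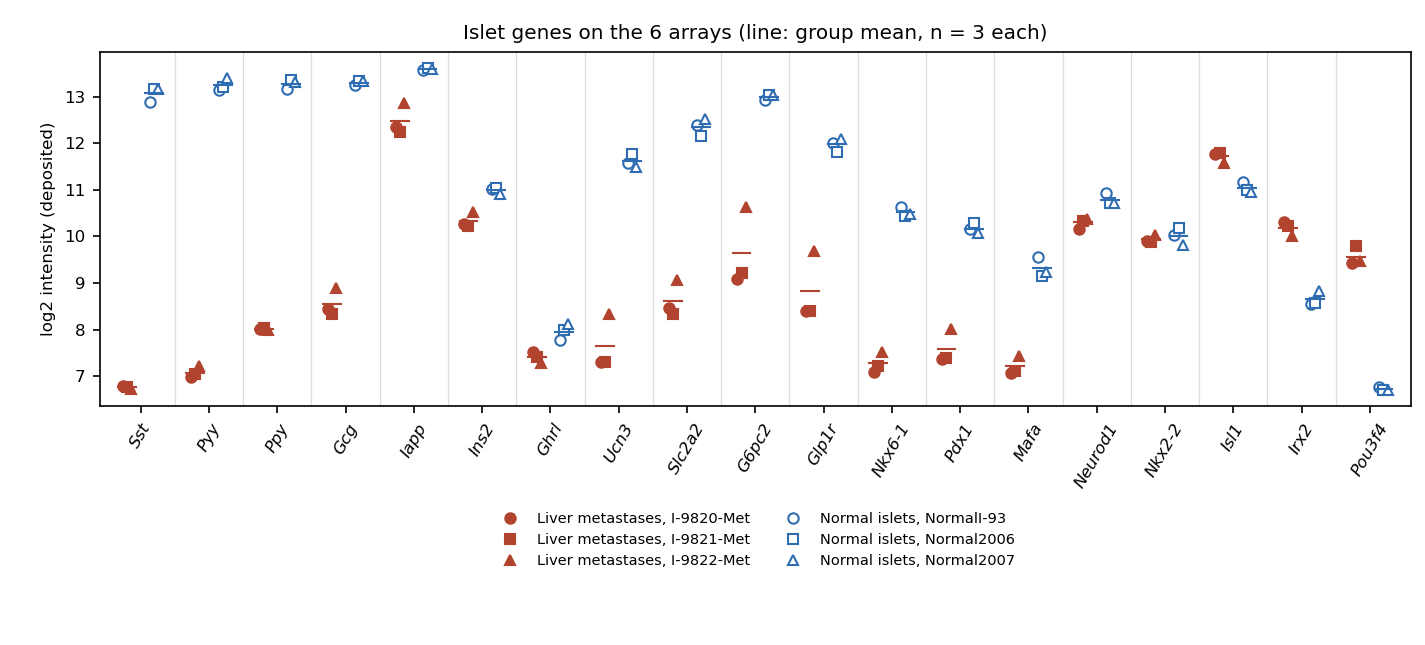
Log2 intensity of 19 islet genes on each array, with liver metastases (filled) left of normal islets (open) and lines at the group means. Sst, Pyy, Ppy and Gcg sit between 6.72 and 8.90 in metastases and above 12.8 in normal islets, while the values for Nkx2-2 overlap and those for Isl1 and Pou3f4 are higher in every metastasis.

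Of 17 measured beta-cell transcription factors, 12 were lower, 2 were higher and 3 were not called. The shares of all genes were 25.1% lower and 20.8% higher, and the list median was -0.82 log2. The deepest falls were in Nkx6-1, which holds beta-cell identity against the alpha-cell program, and in Pdx1, the factor that activates insulin and Slc2a2. Nkx6-1 was at 7.10, 7.23 and 7.53 in liver metastases, against 10.64, 10.44 and 10.49 in normal islets (-3.24 ± 0.23, 9.43-fold lower, adjusted p = 3.81e-10). Pdx1 was at 7.36, 7.40 and 8.01 in metastases, against 10.15, 10.29 and 10.07 in normal islets (-2.58 ± 0.17, 5.98-fold lower, adjusted p = 2.37e-10). Glis3, an insulin gene activator, differed by -2.27 ± 0.17, the maturation factor Mafa by -2.11 ± 0.20 and Mnx1, which keeps beta cells from a delta fate, by -1.97 ± 0.12. Bhlha15 (-1.60 ± 0.22), a factor of secretory cells that acinar cells also use, St18 (-1.34 ± 0.16) and the endocrine differentiation factor Insm1 (-1.01 ± 0.19) fell as well. Falls of less than 1 log2 were seen in Pax6 (-0.82 ± 0.15), Rfx3 (-0.77 ± 0.08), Foxa2 (-0.64 ± 0.09) and Neurod1 (-0.49 ± 0.10).

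The 5 other factors were not called or were higher. Nkx2-2, among the factors that set up beta cells, was at 9.90, 9.88 and 10.04 in liver metastases, against 10.04, 10.18 and 9.81 in normal islets. Its difference of -0.07 ± 0.12 had an interval of -0.32 to 0.17 (adjusted p = 0.65). Myt1 (0.12 ± 0.14, adjusted p = 0.546) and Rfx6 (-0.29 ± 0.15, adjusted p = 0.121) were not called either, and their intervals also stayed within 1 log2. Isl1, which acts in all islet endocrine cells, was higher at 11.77, 11.80 and 11.58 in metastases, against 11.16, 10.99 and 10.96 in normal islets (0.68 ± 0.14, adjusted p = 0.000246). Hnf4a, a factor of both beta cells and hepatocytes, was higher by 0.73 ± 0.11, and the part of liver RNA in its rise was not tested. Among the 17 factors, 8 had an interval within 1 log2 of 0, against 79.9% of all genes.

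Genes of glucose sensing in the mature beta cell were mostly lower, with a median of -0.86 log2. Of 21 measured, 14 were lower and 2 higher, against 25.1% and 20.8% of all genes. Urocortin 3 (Ucn3), a late maturation marker, was at 7.30, 7.30 and 8.33 in liver metastases, against 11.58, 11.76 and 11.50 in normal islets (-3.97 ± 0.28, 15.7-fold lower, adjusted p = 3.55e-10). The glucose transporter Slc2a2 was at 8.46, 8.34 and 9.06 in metastases, against 12.39, 12.16 and 12.51 in normal islets (-3.74 ± 0.37, 13.3-fold lower, adjusted p = 3.96e-08). G6pc2, the islet glucose-6-phosphatase, was at 9.09, 9.21 and 10.64 in metastases, against 12.93, 13.04 and 13.04 in normal islets (-3.35 ± 0.34). The groups did not overlap for any of these genes, and I-9822-Met was the highest metastasis for each. The same array was the highest metastasis for the incretin receptor Glp1r (-3.15 ± 0.29) and the fatty acid receptor Ffar1 (-2.32 ± 0.30). The disulfide oxidase Ero1b (-2.35 ± 0.18), pyruvate carboxylase (Pcx, -2.06 ± 0.11), the glucagon receptor Gcgr (-1.80 ± 0.13), the gap junction gene Gjd2 (-1.80 ± 0.19) and the cation channel Trpm5 (-1.31 ± 0.22) were also lower.

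Other members of the glucose-sensing list fell by less than 1 log2, were not called or were higher. The ATP-sensitive potassium channel subunits Kcnj11 (-0.63 ± 0.16, adjusted p = 0.00338) and Abcc8 (-0.83 ± 0.29, adjusted p = 0.022), the zinc transporter Slc30a8 (-0.76 ± 0.11) and the incretin receptor Gipr (-0.86 ± 0.12) fell by less than 1 log2. Abcc8 lost its call without I-9822-Met, NormalI-93 or Normal2007 (adjusted p of 0.0591 to 0.0642). The L-type calcium channel genes Cacna1d (-0.20 ± 0.16) and Cacna1c (0.16 ± 0.13) were not called, nor was Adcy8 (-0.19 ± 0.17), and all 3 intervals were within 1 log2. Cltrn, a beta-cell surface protein, was at 12.33, 12.16 and 12.16 in liver metastases, against 12.16, 12.32 and 12.25 in normal islets (-0.03 ± 0.19, adjusted p = 0.925). Rgs4, a brake on G-protein signalling, was higher by 1.84 ± 0.26 and Adcy5 by 0.84 ± 0.15. Gpr119 had higher values in every metastasis (10.14 to 10.37, against 9.25 to 9.77 in normal islets) but missed the threshold (adjusted p = 0.0572). Only 5 of the 21 genes had an interval within 1 log2, against 79.9% of all genes.

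Genes of the secretory granule and of prohormone processing moved in both directions. Of 18 measured genes 9 were lower, against 25.1% of all genes, 3 were higher and 6 were not called, with a median of -0.33 log2. An interval within 1 log2 of 0 was found for 8 of the 18, against 79.9% of all genes. Chromogranin A (Chga), the usual blood marker of these tumours, was at 12.05, 11.66 and 11.70 in liver metastases, against 13.15, 13.16 and 13.21 in normal islets (-1.37 ± 0.13, 2.59-fold lower, adjusted p = 1.71e-08). Its relative Chgb was higher (11.46, 11.29 and 11.54 in metastases, against 10.99, 11.10 and 11.01 in normal islets) by 0.40 ± 0.14 (adjusted p = 0.0216). Chgb lost its call without I-9820-Met, I-9822-Met, NormalI-93 or Normal2007 (adjusted p of 0.0531 to 0.0852). Vgf, a granin-like peptide precursor, had the largest rise of the list, with 9.55, 9.10 and 9.61 in metastases, against 7.11, 7.10 and 7.22 in normal islets (2.27 ± 0.29, 4.84-fold higher, adjusted p = 1.5e-06). Ptprn, a granule membrane protein, rose by 0.64 ± 0.17 while Ptprn2 fell by 0.89 (SE 0.11).

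Slc18a1 (-1.77 ± 0.14), which loads monoamines into granules, Scg3 (-1.41 ± 0.23), Scg2 (-1.03 ± 0.18), the convertase inhibitor Pcsk1n (-0.84 ± 0.16), Cadps2 (-0.66 ± 0.25) and synaptophysin (Syp, -0.41 ± 0.12) were lower. Cadps2 lost its call without I-9820-Met (-0.42, adjusted p = 0.212) and without any 1 of the normal islet arrays. The convertase Pcsk1 was at 10.65, 10.76 and 11.54 in liver metastases, against 11.88, 11.63 and 11.91 in normal islets, and was not called (-0.82 ± 0.45, adjusted p = 0.149). Its interval of -1.76 to 0.12 leaves a fall of over 1 log2 possible. Carboxypeptidase E (Cpe), which trims prohormones, was barely past the threshold (-0.25 ± 0.10, adjusted p = 0.0482), and after quantile normalization its difference was 0.05 (adjusted p = 0.719). Leaving out any 1 array but Normal2006 also ended the call of Cpe (adjusted p of 0.0684 to 0.169). The chaperone Scg5 (-0.11 ± 0.12), Sv2a (0.12 ± 0.17), Cadps (-0.22 ± 0.19) and the amidating enzyme Pam (0.46 ± 0.20) were not called, with intervals within 1 log2, and Slc18a2 (0.39 ± 0.30) was not called with a wider one.

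**Figure D2:**
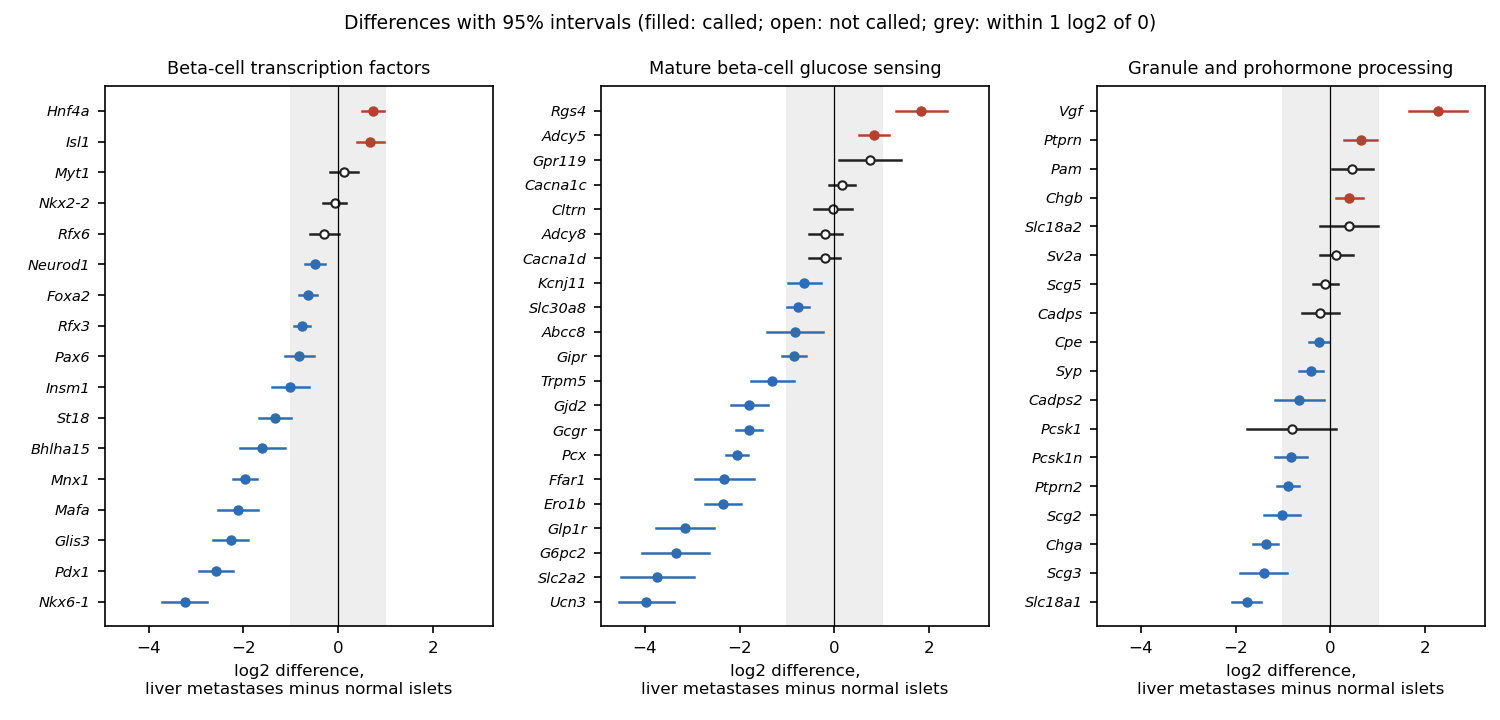
Difference of each member of 3 islet lists (log2, liver metastases minus normal islets; bars are 95% intervals; filled points are called, open points are not). Differences run from -3.97 (Ucn3) to 2.27 (Vgf), and 8 transcription factors, 5 glucose-sensing genes and 8 granule genes have intervals inside the grey band of 1 log2.

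The exocytosis machinery was divided evenly, with 5 of 15 measured genes higher, 5 lower and a median of 0.09. Over all genes 20.8% were higher and 25.1% lower. The beta-cell granule adaptor Sytl4 (-2.86 ± 0.39) and Syt13 (-1.63 ± 0.10) fell most, and Exoc6 (-0.98 ± 0.12), the calcium sensor Syt7 (-0.56 ± 0.17) and Rab27a (-0.48 ± 0.15) fell less. The fusion clamp Cplx1 (1.27 ± 0.16), Doc2b (0.64 ± 0.24), Syt4 (0.38 ± 0.13) and the SNARE genes Stx1a (0.36 ± 0.08) and Snap25 (0.33 ± 0.12) rose. Rab3a, Rab3c, Rims2, Unc13a and Cplx2 were not called.

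Alpha-cell homeobox factors were higher, while glucagon was lower. In the list of alpha and delta cell factors 6 of 7 measured genes were higher, against 20.8% of all genes. The median was 1.5 log2. Pou3f4, an alpha-cell factor, was at 9.42, 9.80 and 9.48 in liver metastases, against 6.77, 6.70 and 6.70 in normal islets (2.84 ± 0.23, 7.16-fold higher, adjusted p = 2.07e-09). Etv1 (2.02 ± 0.19), Irx2 (1.54 ± 0.17) and Irx1 (1.24 ± 0.13), the last 2 known as alpha-cell homeobox genes, rose with it. Hhex, the factor that maintains delta cells, was the 1 member that fell (-0.92 ± 0.18, adjusted p = 0.000178). Rbp4 (1.5 ± 0.25) and Ttr (0.49 ± 0.16) are also abundant in hepatocytes, and the part of liver RNA in their rise was not tested. Both stood as high in metastasis-like primary tumours of the pancreas, which averaged 11.52 and 12.61, against which the metastases differed by 0.21 and 0.22 and were not called.

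Somatostatin receptors, the targets of somatostatin analogues used for imaging and treatment, split by subtype. Sstr2, the main drug target, was at 8.21, 7.53 and 8.11 in liver metastases, against 6.98, 6.88 and 7.25 in normal islets (0.91 ± 0.19, adjusted p = 0.000327). Sstr1 rose by 0.65 ± 0.16 at levels below the array medians, and Sstr3 was lower with 8.38, 8.31 and 8.47 in metastases, against 9.72, 10.03 and 9.98 in normal islets (-1.52 ± 0.14, adjusted p = 1e-08). Sstr4 (0.32 ± 0.14) and Sstr5 (0.30 ± 0.15) were not called.

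Genes that beta cells normally keep silent are called disallowed genes. Of 17 measured, 10 were higher in the metastases, against 20.8% of all genes, and 1 was lower, with a median of 0.59. A list of hepatocyte genes had a median of 3.36 on the same arrays. Several disallowed genes are also expressed in liver, and the part of liver RNA in their rise was not tested. The lactate and pyruvate transporter Slc16a1 was at 8.91, 8.99 and 9.08 in liver metastases, against 5.85, 5.65 and 6.05 in normal islets (3.15 ± 0.16, 8.85-fold higher, adjusted p = 7.78e-12). Lactate dehydrogenase A (Ldha) was higher by 1.14 ± 0.28 and ornithine aminotransferase (Oat) by 2.98 ± 0.26. Igfbp4 (2.95 ± 0.26), Mgst1 (2.64 ± 0.29), Maf (1.12 ± 0.15), Ndrg2 (1.05 ± 0.12), Lmo4, Smad3 and C1qbp were also higher. Slc16a1 averaged 8.80 in metastasis-like primaries, from which the metastases did not differ beyond the threshold, whereas Oat, Igfbp4, Mgst1, Maf, Ndrg2 and C1qbp were called higher in metastases than in those primaries too. Yap1 was lower by 0.29 (SE 0.08). Acot7, Cxcl12, Hk1, Hk2, Pdgfra and Zfp36l1 were not called.

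The glycolysis list averaged 9.56, 9.67 and 9.65 in liver metastases, against 9.28, 9.28 and 9.23 in normal islets. In it 6 of 15 measured genes were higher and 2 lower, with rises in the lactate exporter Slc16a3 (1.63 ± 0.21), Pfkp (1.5 ± 0.16), Pgk1 (1.34 ± 0.18), Ldha and Tpi1 (1.11 ± 0.13). In citrate and pyruvate cycling 7 of 20 were higher and 6 lower, and 15 of the 20 intervals lay within 1 log2 of 0. Over all genes 20.8% were higher, 25.1% were lower and 79.9% had such an interval. Pyruvate carboxylase, at 7.89, 7.81 and 8.10 in liver metastases, against 10.02, 9.93 and 10.02 in normal islets, and the citrate carrier Slc25a1 (-1.34 ± 0.19) fell, while Me3 (1.29 ± 0.15) and Idh3a (1.21 ± 0.11) rose. These enzymes supply the pyruvate cycles that couple glucose to insulin release.

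Among the 14 measured pancreatic progenitor factors, 4 were higher, 5 lower and 5 not called, with a median of -0.14. Over all genes 20.8% were higher and 25.1% lower. Nr5a2 (1.19 ± 0.19), Onecut2 (0.86 ± 0.13), Sox4 (0.84 ± 0.20) and Sox9 (0.46 ± 0.17) rose. Nr5a2 is also a hepatocyte and acinar factor. Tcf7l2 (-1.18 ± 0.15), Gata6 (-1.14 ± 0.11), Prox1 (-0.94 ± 0.10), Neurog3, the switch for endocrine fate (-0.57 ± 0.11), and Hes1 (-0.50 ± 0.15) fell. Neuronal genes were higher in 10 of 19 cases, led by the RNA-binding protein Elavl3 at 10.44, 10.44 and 10.21 in liver metastases, against 6.99, 6.90 and 6.91 in normal islets (3.43 ± 0.16, adjusted p = 1.63e-12). Nefl (2.09 ± 0.35), Stmn3 (1.94 ± 0.11) and Gap43 (1.86 ± 0.45) rose, and Cntnap2 (-3.09 ± 0.21), Stmn2 (-1.67 ± 0.26) and Elavl4 (-1.35 ± 0.13) fell.

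Epithelial adhesion genes were lower. E-cadherin (Cdh1) was at 7.18, 7.28 and 8.10 in liver metastases, against 10.72, 10.53 and 10.81 in normal islets (-3.17 ± 0.26, 8.98-fold lower, adjusted p = 3.44e-09), and Cldn4 (-2.70 ± 0.30), Epcam (-2.61 ± 0.27), Cldn7 (-2.39 ± 0.16) and Krt18 (-1.95 ± 0.21) fell with it. Of 18 adhesion and mesenchymal genes 10 were lower and 5 higher, against 25.1% and 20.8% of all genes. Fibronectin (Fn1, 2.76 ± 0.22), which hepatocytes also secrete, Snai2 (1.39 ± 0.26), Vim (0.83 ± 0.22), Zeb1 (0.82 ± 0.11) and Zeb2 (0.49 ± 0.19) rose, and Snai1, Twist1 and Itga5 were not called. N-cadherin (Cdh2) was lower by 0.32 (SE 0.10).

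Stress genes fell. In the immediate-early and heat shock list 13 of 15 genes were lower, against 25.1% of all genes, with a median of -1.03. Fosb (-2.97 ± 0.19), Fos (-2.86 ± 0.22), Hspa1a (-2.84 ± 0.22) and Egr1 (-2.77 ± 0.16) changed most. These genes respond to handling of tissue, and how islets and metastases were taken from the animals is not described in the labels used here, so handling and group cannot be told apart. In the unfolded protein response, which serves high hormone output, 14 of 17 genes were lower, against 25.1% of all genes. The list median was -0.75. The largest falls were in Sdf2l1 (-2.03 ± 0.20), Dnajb9 (-1.35 ± 0.16), Herpud1 (-1.34 ± 0.15) and the sensor Ern1 (-1.33 ± 0.22).

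Cell cycle genes were higher in 32 of 33 cases, against 20.8% of all genes, with a list median of 2.65 log2. Mki67, the proliferation marker used to grade these tumours, was at 11.03, 11.11 and 10.83 in liver metastases, against 8.70, 7.24 and 6.52 in normal islets (3.51 ± 0.35, adjusted p = 4.97e-08). Bub1 (3.86 ± 0.35), Top2a (3.72 ± 0.35) and the 6 replication helicase genes Mcm2 to Mcm7 (2.02 for Mcm5 to 2.71 for Mcm3) rose as well. The normal islets spread widely, and the list averaged 8.08 in NormalI-93, against 7.12 in Normal2006 and 6.73 in Normal2007, below the 9.88 to 9.98 of the metastases. E2f1 was the member not called (0.26 ± 0.14).

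**Figure D3:**
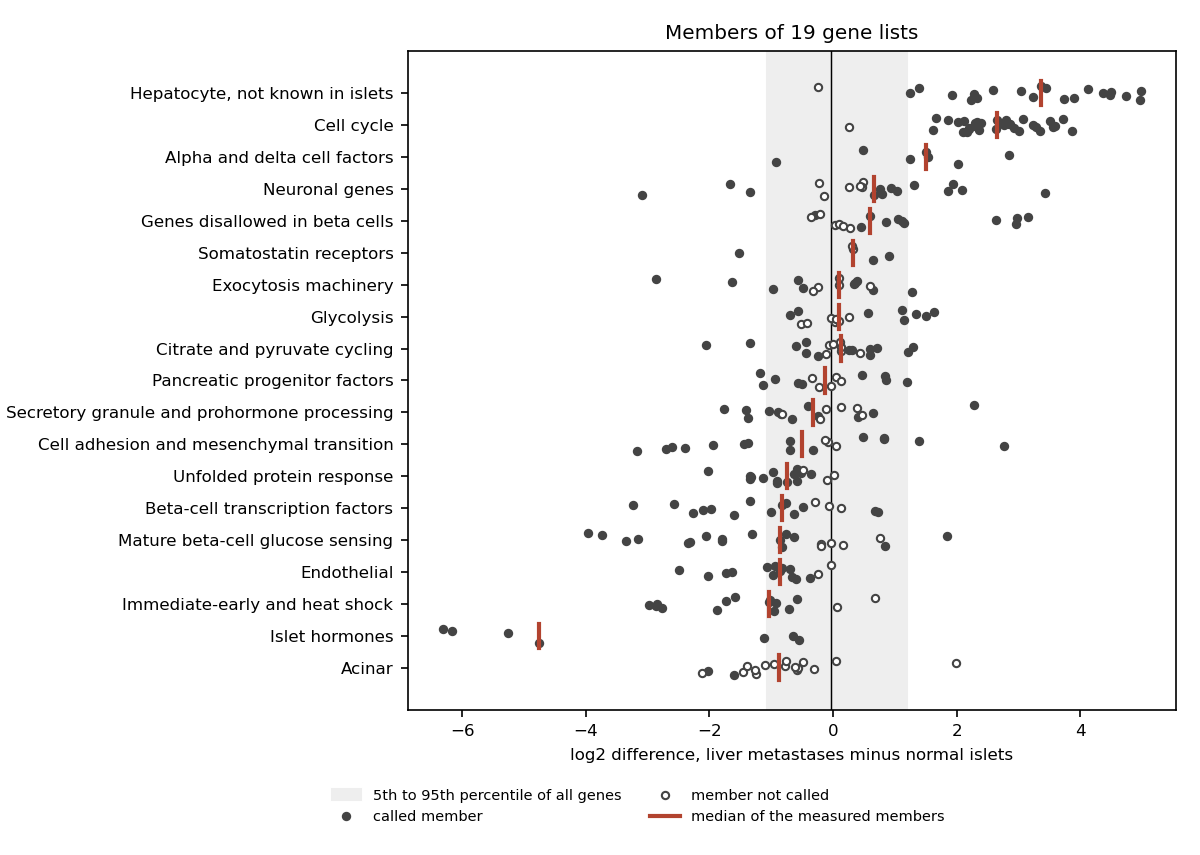
Difference of every measured member of 19 gene lists (log2, liver metastases minus normal islets), with the list median in red and the range from the 5th to the 95th percentile of all genes (-1.07 to 1.2) in grey. Hepatocyte, cell cycle and alpha and delta cell factors lie to the right, and islet hormones lie farthest to the left with a median of -4.75.

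Liver genes made up much of the top of the comparison. Of the 12 largest rises, Serpina1c, Alb, Hpx, Ahsg, Ces1c, Cyp2e1 and Hp are hepatocyte genes. Albumin (Alb) was at 13.16, 13.08 and 12.89 in liver metastases, against 8.10, 6.12 and 7.74 in normal islets (5.72 ± 0.91, 52.8-fold higher, adjusted p = 2.23e-05). Its signal was not confined to metastases. It averaged 9.39 ± 1.61 (SD) in metastasis-like primaries, 10.38 ± 2.06 in angiogenic islets and 7.06 ± 0.92 in islet tumours. Of 21 measured hepatocyte genes not known from islets 20 were higher, against 20.8% of all genes, with a list median of 3.36. The list averaged 9.54, 9.15 and 8.95 in metastases, against 6.05, 5.95 and 6.12 in normal islets. All 21 were also called higher than in metastasis-like primaries, where the list averaged 5.81. The gene not called against normal islets was Tat. It stood at 9.5 ± 0.06 there (SD, n = 3), above the array medians, although listed as not known from islets. Of the sinusoid and Kupffer cell genes 6 of 10 were higher, against 20.8% of all genes. Vsig4 (2.56 ± 0.22) and Clec4g (1.25 ± 0.19) were among them, while Lyve1 fell (-0.89 ± 0.23) and 3 were not called. The part of liver cells in the differences of other genes was not tested. Their share of the RNA was not estimated either, and I-9820-Met was above I-9822-Met for all 21 hepatocyte genes. Serpina1c, Cyp2c29, Cyp3a11, Ces1c and Mup3 belong to families of near-identical copies, so signal may be shared among them. Serpina1c averaged 11.00 ± 0.53 in metastasis-like primaries (n = 5) and did not differ from them beyond the threshold.

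Markers of other cell types were compared as well. Endothelial genes were lower in 13 of 15 cases, against 25.1% of all genes, with a list median of -0.86. Among them were Plvap (-2.49 ± 0.20), Emcn (-2.03 ± 0.24) and Flt1 (-1.74 ± 0.17). Pecam1 was at 7.85, 8.06 and 8.09 in liver metastases, against 8.92, 8.49 and 9.15 in normal islets. Acinar genes varied more within the groups than between them. The 18 measured acinar genes averaged 9.21, 9.13 and 10.04 in metastases, against 11.00, 11.64 and 8.28 in normal islets, and 2 were called lower. Without Normal2007, 16 of the 18 were called lower. Fibroblast genes were higher in 6 of 18 cases, pericyte genes in 3 of 11 and macrophage genes in 4 of 16, shares near the 20.8% of all genes, with 1 macrophage gene lower, and none of 13 lymphocyte genes was called. The ductal keratin Krt19 was lower by 2.04 (SE 0.40). Of 12 ductal genes 4 were higher and 5 lower, against 20.8% and 25.1% of all genes.

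The sexes of the groups appeared unequal. Xist, transcribed from the inactive X chromosome of females, was at 5.73, 5.73 and 5.82 in liver metastases, against 10.79, 11.41 and 11.23 in normal islets. The Y-linked gene Eif2s3y was at 9.71, 9.58 and 9.75 in metastases, against 8.55, 4.74 and 7.94 in normal islets. Normal2006 was thus low for the Y-linked gene, and the other normal islets were high for both genes. Sex and group cannot be told apart here.

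**Figure D4:**
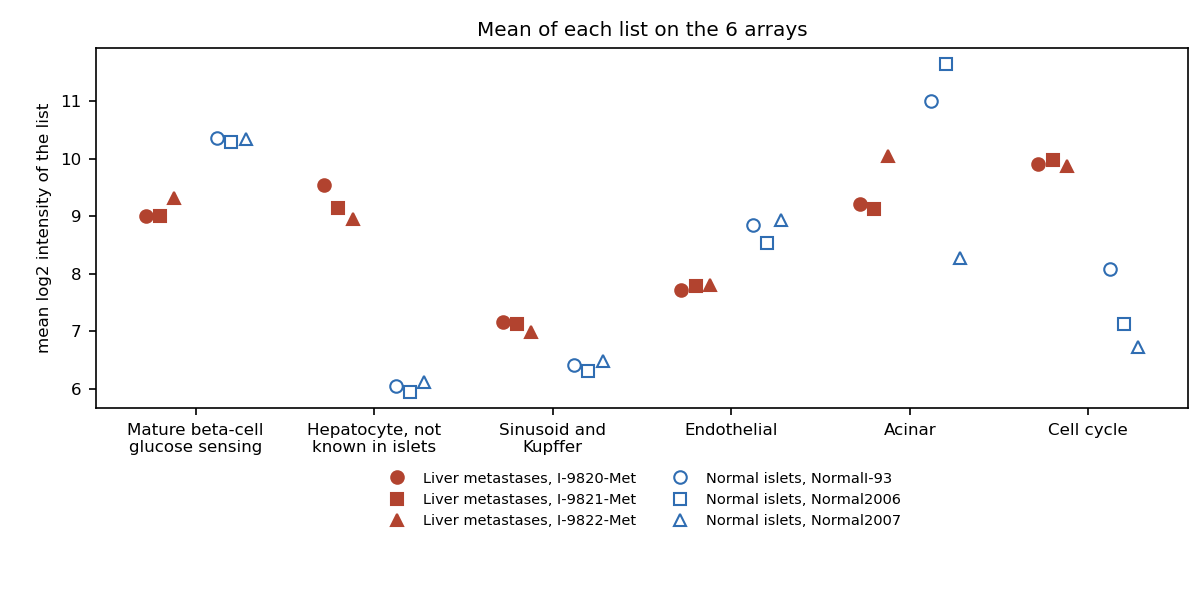
Mean log2 intensity of 6 gene lists on each array, with liver metastases (filled) left of normal islets (open). Hepatocyte genes average 8.95 to 9.54 in the metastases and 5.95 to 6.12 in normal islets, whereas the acinar means of the groups overlap, with Normal2007 at 8.28.

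The sample titles carry a code, which is I in all metastases and in NormalI-93 and differs in the other normal islets. What it stands for was not stated in the labels. Within code I, the 3 metastases against NormalI-93 alone gave 6549 called genes, of which 46.2% were higher. Lower there were 12 of 17 beta-cell transcription factors, 13 of 21 glucose-sensing genes, 6 of 7 hormones and 6 of 18 granule genes, and higher were 6 of 7 alpha and delta cell factors, 10 of 17 disallowed genes, 32 of 33 cell cycle genes and 20 of 21 hepatocyte genes. With 1 normal array the spread was taken from the other groups, so that NormalI-93 was assumed to vary like them.

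The largest rises outside liver genes were in Calcr, Peg10, Cartpt, Nrn1 and Asb4. The calcitonin receptor (Calcr) was at 12.31, 12.19 and 12.15 in liver metastases, against 5.99, 5.83 and 6.22 in normal islets (6.20 ± 1.13, 73.7-fold higher, adjusted p = 0.000105). Peg10, an imprinted gene derived from a retrotransposon, was at 13.22, 13.24 and 13.16 in metastases, against 7.97, 7.99 and 7.95 in normal islets (5.24 ± 0.45, adjusted p = 5.5e-09). The peptide hormone precursor Cartpt was at 12.91, 12.77 and 12.74 in metastases, against 7.67, 7.60 and 7.61 in normal islets (5.18 ± 0.58). Replicates lay close together for all 3 genes. Nrn1, a neuronal surface protein, rose by 4.69 ± 0.55 and Asb4 by 4.58 ± 0.35.

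Of 16 measured oncofetal and imprinted genes 4 were higher, 2 lower and 10 not called, against 20.8% of all genes higher and 25.1% lower. Dlk1 (2.33 ± 0.57), Plagl1 (0.84 ± 0.23) and Peg3 (0.40 ± 0.11) rose with Peg10, and Grb10 (-1.57 ± 0.31) and Gpc3 (-0.85 ± 0.26) fell. Igf2, which is induced during RT2 tumour growth, was at 8.34, 8.35 and 9.44 in liver metastases, against 9.51, 8.45 and 7.33 in normal islets (0.28 ± 0.36, adjusted p = 0.569). Its groups overlapped, and islet tumours stood higher at 11.03.

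The 12 largest falls held 4 islet hormones, Xist and 7 other genes. Cyclin D2 (Ccnd2), the main D cyclin of beta cells, was at 8.01, 8.45 and 8.47 in liver metastases, against 12.76, 12.73 and 12.87 in normal islets (-4.47 ± 0.20, 22.2-fold lower, adjusted p = 1.45e-12). Nell1 (-4.81 ± 0.39), Tspan8 (-4.52 ± 0.23), the cGMP phosphodiesterase Pde5a (-4.48 ± 0.35), the Wnt antagonist Frzb (-4.37 ± 0.42), the defensin Defb1 (-4.15 ± 0.22) and the sodium channel subunit Scnn1b (-4.11 ± 0.28) fell, and all metastases lay below all normal islets for each. In the metastases these 6 genes were below the array medians, so their falls may be underestimates, while Ccnd2 stayed above them.

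The other groups were compared as well, and whether metastasis-like primaries follow islet tumours in time was not tested. Against islet tumours (5 samples) 36.6% of genes were called in the metastases (17.3% higher, 19.3% lower). Against metastasis-like primaries (5 samples), whose rule of assignment the labels do not state, 15.7% were called (7.8% higher, 7.87% lower). These comparisons share the metastasis samples. Of the 17 beta-cell transcription factors, 14 were lower in metastases than in islet tumours and 3 (Pax6, Rfx3 and Myt1) lower than in metastasis-like primaries. Pdx1 averaged 10.17 in normal islets, 9.93 in hyperplastic islets, 9.75 in angiogenic islets and 9.86 in islet tumours. The mean was 7.11 for metastasis-like primaries and 7.59 for liver metastases. Pdx1 was higher in metastases than in metastasis-like primaries, by 0.48 (adjusted p = 0.0378). Slc2a2 was higher by 1.31 and G6pc2 by 0.96 (adjusted p = 0.0334). I-9822-Met was the highest metastasis for each. Pdx1 was at 7.36, 7.40 and 8.01 in metastases and the primaries reached 7.38, so these groups overlapped. G6pc2 was at 9.09, 9.21 and 10.64 in metastases, against 8.69 ± 0.59 in those primaries (SD, n = 5). Slc2a2 is also the main glucose transporter of hepatocytes, whose list averaged 9.21 in metastases and 5.81 in metastasis-like primaries, and the part of liver RNA in this difference was not tested. Gpr119 was also higher than in those primaries by 1.09, and Vgf by 1.42. Sst averaged 13.07 for normal islets, 8.09 for islet tumours, 7.25 for metastasis-like primaries and 6.76 for liver metastases, and none of the 7 hormones was called between metastases and metastasis-like primaries. Peg10 averaged 9.76 in islet tumours and 13.17 in metastasis-like primaries, against which metastases differed by 0.04. Calcr averaged 6.82 in islet tumours and 9.26 ± 2.60 in metastasis-like primaries (SD, n = 5).

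**Figure D5:**
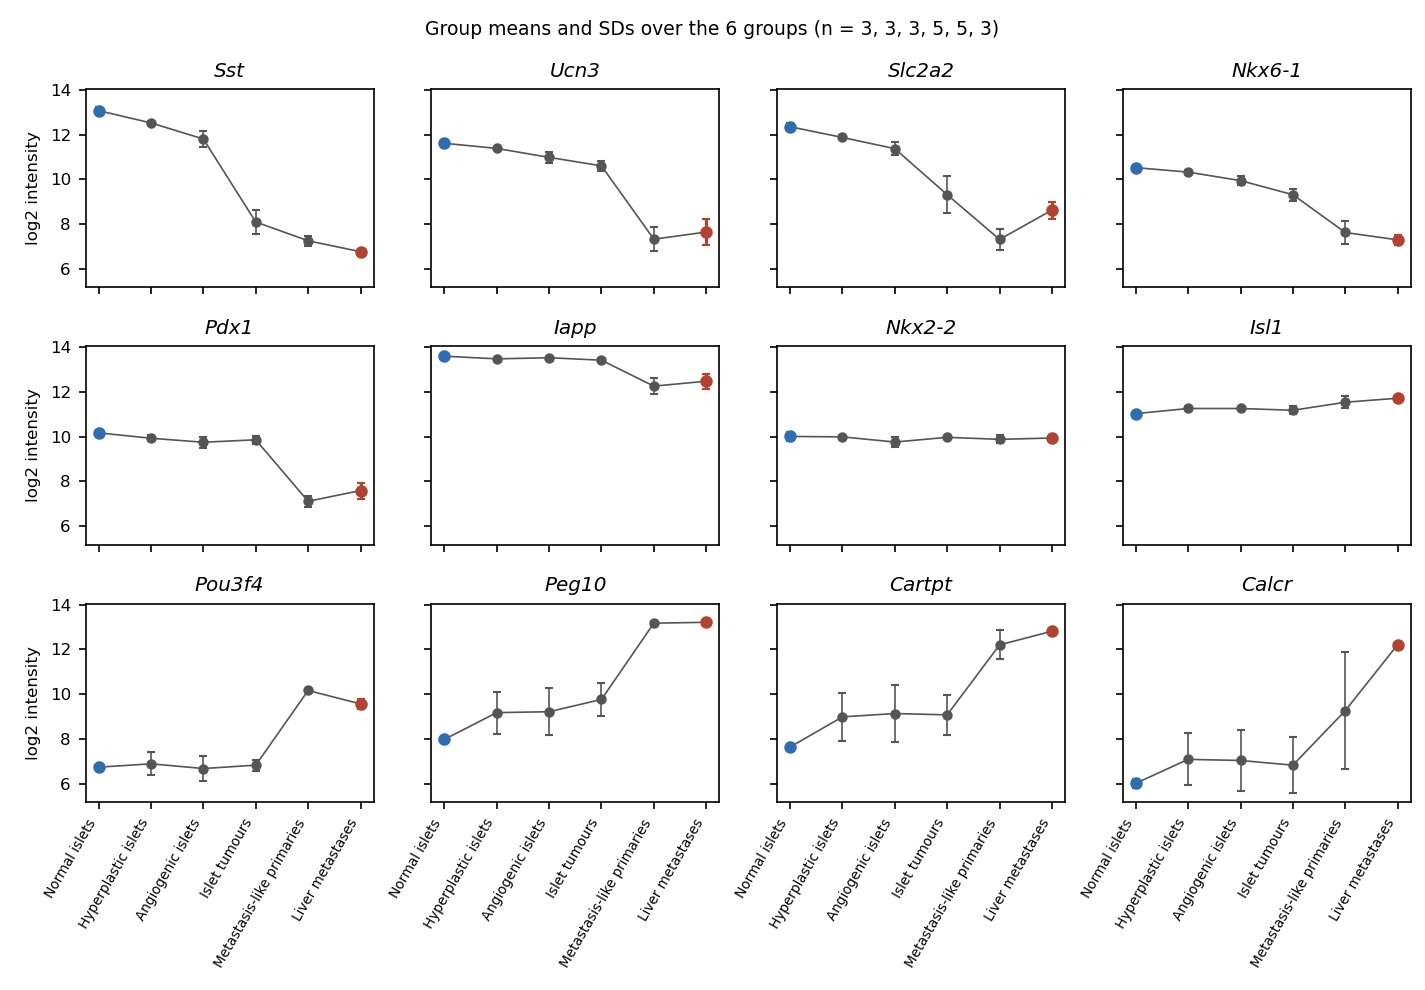
Mean log2 intensity of 12 genes in the 6 groups, drawn from normal islets to liver metastases, with SDs as bars. Pdx1 and Ucn3 are lower in metastasis-like primaries than in islet tumours, and Sst is at 8.09 in islet tumours. Nkx2-2 is near 10 in all groups, and Calcr has its widest bar in metastasis-like primaries (SD 2.60).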

How the data were processed

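The deposited values are log2 intensities of 35511 probe sets, processed by the authors with aroma.affymetrix, per the series' design text. Its version and its background, normalization and summarization steps were not stated there, and the log2 unit was read from the range of the values. Probe sets with 1 gene symbol in the platform annotation were kept (21789, against 1621 with several and 12101 not listed), and for 999 genes with several the probe set of highest mean signal was used. No filter on dim genes was applied.

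All 22 arrays were fitted with limma 3.58.1 (R 4.3.3), with 1 coefficient for every group and a common estimate of spread. Liver metastases minus normal islets was the contrast (two-sided moderated test), adjusted by Benjamini-Hochberg over 19938 genes, and called at an adjusted p below 0.05. Standard errors and 95% intervals come from this fit, and SDs from the samples. On simulated arrays 200 of 19938 genes were changed, and the noise of each gene was independent. There 95% of changes of 1 log2 and 99% of changes of 2 log2 were recovered, with 8 false calls. In the real comparison 45.8% of genes were called, so these figures are not its error rates. Arrays carry no read depth, and their number limits the precision.

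Genes named are the 12 largest rises and falls, every measured member of the islet lists, and, from every other list, its 5 members of lowest adjusted p and those not called, as far as the text needs them, besides Alb, Cpa1, Mki67, Krt19, Pecam1, Xist, Pcx and Igf2. The largest changes skip predicted genes, unnamed reading frames, olfactory and vomeronasal receptors and small RNAs. A gene of a list that was given beyond these was chosen after its values were seen. Members and lists were chosen with earlier results of these data known. Alternatives covered the arrays fitted, scaling, dim genes, probe sets, array weights, variance, a minimum difference, the title code and leaving out arrays. Genes not analysed here had no probe set with a single symbol. Figures were drawn with matplotlib.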

Additional observations from a re-analysis of the deposited data

Results flagged for a closer look

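Among 30 sets of 5 arrays checked for a single distant sample (15 genes in metastasis-like primaries and in islet tumours), 1 was marked. Nkx6-1 stood at 8.5 in the metastasis-like primary III-8016-MLP, while the other metastasis-like primaries lay between 7.25 and 7.56, and a gap of this size to the nearest sample is over Dixon's critical value. Chance marks about 1 in 20 such sets. Groups of 3, the liver metastases and the normal islets among them, were too small for this check.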

How the results depend on the processing

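The count of called genes stayed within 1.5 times of 9139 under every alternative run except a required difference of at least 1 log2, which called 2378 genes and left 4 of the 9 granule genes lower. Without dim genes, 11 hepatocyte genes remained in the test and higher, because the others were filtered out. Leaving out 1 array at a time gave 8218 to 8624 called genes, of which 44.9% to 46.2% were higher, and median centring gave 42.0%. With the title code as a replicate block 8793 genes were called (45.9% higher). No paired analysis was possible because the metastases and normal islets share only code I, on 1 normal array. Over 18 alternatives, 175 of the 286 called genes checked stayed called in the same direction, and 64 of 144 not called genes were called in at least 1. The required difference of 1 log2 ends by rule the call of every gene below it, here 103 genes. Without dim genes, only 397 of the 430 genes checked were tested, and the absent ones counted as unchanged. The count of 175 therefore does not measure how firm the calls are. Reversals were Cpe after quantile normalization (0.05), and, among uncalled acinar genes, Try5 without Normal2007 (-1.24; leaving out 1 array gave -1.24 to 0.84), Try5 without I-9822-Met and Normal2007 together (-1.52) and Cpb1 with the acinar mean as a covariate (0.47). These last 2 alternatives were chosen after seeing the data. The cause of the reversals was not tested.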

Other observations

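Calcr, Peg10 and Asb4, which are 3 of the 12 largest rises, lie on the same stretch of mouse chromosome 6, as RefSeq places them. The stretch was chosen after these values were seen. Of the 12 other named and measured genes from Calcr to Pdk4, 6 were higher in liver metastases, 3 lower and 3 not called. Over all genes, 20.8% were higher and 25.1% lower, and whether the stretch differs from others was not tested. Sgce, an imprinted neighbour of Peg10 transcribed from the same paternal allele, was at 9.99, 10.01 and 9.85 in metastases, against 8.0, 8.48 and 8.53 in normal islets (1.61 ± 0.16 log2, SE). Casd1 was higher by 1.74 ± 0.13 and Ppp1r9a by 2.01 ± 0.15. Pon1, a gene of hepatocytes, was higher by 3.17 ± 0.28 and averaged 4.85 in metastasis-like primaries. Bet1 (-0.96 ± 0.15), Pon2 (-0.77 ± 0.22) and Pdk4 (-1.60 ± 0.17) were lower, and Gngt1, Gng11 and Pon3 were not called.

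Other rises picked after their values were seen were in transcription factors and peptides that are not in the lists. Tfap2b was at 9.95, 10.49 and 10.01 in metastases, against 5.62, 5.68 and 5.88 in normal islets (4.42 ± 0.33). The forkhead genes Foxc1 (4.02 ± 0.50) and Foxf2 (3.99 ± 0.20) and the hormone gene secretin (Sct, 4.45 ± 0.62) were higher as well. C1ql3, a secreted synaptic protein, rose by 4.56 ± 0.35 and averaged 10.57 in both the metastases and the metastasis-like primaries.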
